A study of Mus musculus with 16 samples.

Results

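The expression of 9 genes that mark the medium spiny neurons of the striatum, Drd1, Tac1, Pdyn, Drd2, Adora2a, Penk, Ppp1r1b, Pde10a and Rgs9, was described in bulk brain RNA. They were the rows of the raw count matrix whose gene symbol was one of these names, 9 of 55487 rows, and all 9 were among the 18609 genes with enough counts to be tested. RNA of 16 female mice was sequenced, in 4 groups of 4 mice. Every mouse carried the human CETP gene under its own promoter (CETPtg), which supplies a lipid transfer protein that mice lack. The 8 APPtg/CETPtg mice also carried the McGill-APP-Thy1 transgene, human APP with the Swedish and Indiana mutations of familial Alzheimer's disease, which the Thy1 promoter drives in neurons. Both transgenes were heterozygous on a C57BL/6J background. All mice ate a diet with 1% cholesterol, from 11 weeks of age, and were given either evacetrapib, an inhibitor of CETP, at 30 mg/kg/day or vehicle alone (Kolliphor EL and glucose) by intraperitoneal injection for 11 weeks. The vehicle-treated mice were S1 to S4 (CETPtg) and S5 to S8 (APPtg/CETPtg), and the evacetrapib-treated mice were A to D (CETPtg) and E to H (APPtg/CETPtg). The RNA came from brain tissue without dissection of the striatum.

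Medium spiny neurons are the GABAergic output neurons of the striatum, the input station of the basal ganglia, and fall into a direct and an indirect pathway. Direct-pathway neurons carry the dopamine D1 receptor (Drd1), which stimulates adenylyl cyclase, and release substance P (from Tac1) and dynorphin (from Pdyn) beside GABA. Indirect-pathway neurons carry the dopamine D2 receptor (Drd2), which inhibits adenylyl cyclase, and an adenosine receptor (Adora2a), which stimulates it, and release enkephalin (from Penk). Both use DARPP-32 (Ppp1r1b), a phosphatase inhibitor controlled by protein kinase A, the cyclic nucleotide phosphodiesterase Pde10a, and Rgs9, which speeds the switching off of G proteins. The peptide genes, and to a lesser degree the receptors, are also expressed outside the striatum.

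The promoters of the members that the comparisons below turn on are shown first. Promoter windows of 300 bases, from 250 before to 50 after a RefSeq start site on GRCm38.p6, were available for 6 of the 9 members, some with more than 1 start site, in 9 windows. Adora2a, Penk and Ppp1r1b were not matched. The Pde10a window shown starts inside the longer GENCODE gene, at an internal start site. Each is written in the direction of the gene, with any match to the TATA box TATAAA or to TGACG or CGTCA, the core of the cAMP response element, in capitals. Pdyn and Pde10a are shown because they differed between the genotypes, Tac1 because it followed Pdyn from mouse to mouse, and Drd1 and Drd2 because they define the pathways.
Pdyn (chr2:129699889-129700188, minus strand): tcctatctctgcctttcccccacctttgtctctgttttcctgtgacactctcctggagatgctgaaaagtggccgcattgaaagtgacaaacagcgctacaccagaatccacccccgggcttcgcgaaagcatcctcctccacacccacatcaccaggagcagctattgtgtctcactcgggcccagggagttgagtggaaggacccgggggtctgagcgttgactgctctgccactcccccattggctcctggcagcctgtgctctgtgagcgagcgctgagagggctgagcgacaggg
Tac1 (chr6:7554811-7555110, plus strand): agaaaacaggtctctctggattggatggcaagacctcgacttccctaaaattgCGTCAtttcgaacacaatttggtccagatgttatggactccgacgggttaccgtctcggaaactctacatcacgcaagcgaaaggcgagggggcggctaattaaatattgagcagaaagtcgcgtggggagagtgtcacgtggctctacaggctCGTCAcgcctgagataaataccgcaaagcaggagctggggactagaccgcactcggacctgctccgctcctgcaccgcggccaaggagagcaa
Pde10a (chr17:8801495-8801794, plus strand): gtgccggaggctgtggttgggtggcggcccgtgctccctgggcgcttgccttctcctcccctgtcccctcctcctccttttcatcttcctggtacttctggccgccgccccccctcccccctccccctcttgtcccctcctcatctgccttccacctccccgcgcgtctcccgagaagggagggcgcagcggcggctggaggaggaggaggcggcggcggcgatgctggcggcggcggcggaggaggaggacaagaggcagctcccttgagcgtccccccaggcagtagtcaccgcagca
Drd1 (chr13:54055609-54055908, minus strand): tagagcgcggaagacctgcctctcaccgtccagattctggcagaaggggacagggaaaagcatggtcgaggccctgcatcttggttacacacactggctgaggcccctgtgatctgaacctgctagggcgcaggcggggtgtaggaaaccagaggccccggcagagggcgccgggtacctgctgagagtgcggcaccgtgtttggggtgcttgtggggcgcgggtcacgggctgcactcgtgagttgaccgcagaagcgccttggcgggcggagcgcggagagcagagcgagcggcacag
Drd2 (chr9:49340153-49340452, plus strand): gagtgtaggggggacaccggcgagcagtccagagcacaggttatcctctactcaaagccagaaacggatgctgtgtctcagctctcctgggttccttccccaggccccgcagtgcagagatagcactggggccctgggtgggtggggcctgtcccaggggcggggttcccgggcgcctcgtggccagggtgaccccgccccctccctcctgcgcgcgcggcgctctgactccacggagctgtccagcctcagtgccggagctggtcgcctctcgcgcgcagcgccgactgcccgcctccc
Of the members' windows, only that of Tac1 held a cAMP response element core. It held 2, starting 197 and 43 bases before the start site, and 20.8% of the 32817 windows of all genes held at least 1. The full element TGACGTCA, which contains both cores, was in 0 of the members' 9 windows and in 1.79% of all windows. A TATA box was found in 1 member window, that of Rgs9, 195 bases before the start site, and in 13.6% of all windows. Both strands were searched, and these are matches of letters only.

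Each mouse had 21391335 to 55453789 counts on genes, and the members had between 1130 and 33394 counts in a mouse. Depth differed between the genotypes. The CETPtg libraries had 28626139 to 46800787 counts, and the APPtg/CETPtg libraries 21391335 to 27398792 apart from S8 at 55453789. The part of depth in the genotype differences was not tested. Replicate mice differed by more than the sampling noise of their counts in every pair. Thy1, whose promoter drives the APP transgene, ranged from 684 to 807 CPM (counts scaled to 1000000 per library, with TMM normalization) in CETPtg and from 865 to 2063 CPM in APPtg/CETPtg mice. Each genotype held its own columns and each treatment its own rows of the index plate, so an effect of plate position and an effect of genotype or treatment cannot be told apart. Genes of structures next to the cerebrum varied widely between libraries. The pituitary genes Gh, Prl and Pomc reached 169.7, 515 and 148 CPM in mouse E and at most 9.74 CPM in any other. The hypothalamic hormones Oxt and Avp were highest in S3 and S7, the choroid plexus gene Ttr was highest in S8 (427 CPM), and the sum of 5 olfactory bulb genes ranged from 14.6 CPM in S5 to 174 CPM in G. In bulk tissue, fewer medium spiny neurons in the sample and less RNA of a gene per neuron cannot be told apart.

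Per kilobase of exon, Penk was the most abundant member at 237 ± 19.3 CPM per kb (mean ± SD, n = 16), followed by Ppp1r1b at 192 ± 24.9 CPM per kb, and this order held in 16 of 16 mice. The third, Pde10a, lay far below at 32.3 ± 3.64 CPM per kb. Drd2 at 28.7 ± 4.03 and Adora2a at 28.5 ± 4.13 CPM per kb could not be ordered, since Drd2 was above Adora2a in only 6 of 16 mice. Rgs9 at 21.8 ± 2.96 CPM per kb was below Adora2a in 15 mice and above Pdyn in 13. The direct-pathway genes closed the order and did not differ beyond their spread: Pdyn at 18.7 ± 2.51, Drd1 at 18.4 ± 1.75 and Tac1 at 17.2 ± 2.30 CPM per kb, with Pdyn above Drd1 in 7 and Drd1 above Tac1 in 10 of 16 mice. This order depends on the length used, which covered all annotated exons of a gene, from 1.63 kb for Penk to 12.8 kb for Pde10a. Without division by length Ppp1r1b was highest at 563 ± 73.0 CPM, above Pde10a at 415 ± 46.8 and Penk at 386 ± 31.5 CPM. Levels between mice varied least for Penk, with a coefficient of variation of 8.16%, and most for Adora2a at 14.5%.

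Drd1, the receptor of the direct pathway (ENSMUSG00000021478, chr13:54051183-54055705, minus strand; positions on GRCm38 from GENCODE M21), averaged 68.5 to 69.1 CPM in 3 of the 4 groups. It measured 68.6, 73.9, 63.7 and 68.1 CPM in S1 to S4, 62.2, 70.8, 77.3 and 66.0 CPM in A to D, and 77.9, 59.8, 70.2 and 67.9 CPM in S5 to S8. In the evacetrapib-treated APPtg/CETPtg mice E to H it was 56.9, 63.5, 57.8 and 63.1 CPM, a mean of 60.3 ± 3.47 (SD, n = 4) beside 68.9 ± 7.46 CPM in S5 to S8. All 4 of these mice were below the median of S5 to S8, but S6 lay among them, so the groups overlapped.

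Pdyn, the dynorphin precursor (ENSMUSG00000027400, chr2:129686565-129699844, minus strand), was higher in APPtg/CETPtg than in CETPtg mice. The CETPtg mice lay close together, at 50.1, 50.7, 47.6 and 48.2 CPM in S1 to S4 and 44.4, 51.4, 53.0 and 48.2 CPM in A to D. The APPtg/CETPtg mice measured 62.0, 50.9, 56.1 and 62.0 CPM in S5 to S8 and 51.8, 70.6, 53.7 and 65.4 CPM in E to H. Among them, 6 of 8 were above the highest CETPtg mouse, and S6 and E were not. Under vehicle the lowest APPtg/CETPtg mouse, S6 at 50.9 CPM, lay only just above the highest CETPtg mouse, S2 at 50.7 CPM. How many of all genes tested separate in this way was not counted.

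Tac1, the substance P precursor (ENSMUSG00000061762, chr6:7554879-7565834, plus strand), showed a like distribution with more overlap. It was 58.5, 58.0, 55.1 and 52.4 CPM in S1 to S4 and 45.0, 51.0, 59.7 and 56.7 CPM in A to D. In S5 to S8 it was 76.6, 57.5, 58.8 and 67.7 CPM and in E to H 54.3, 66.5, 52.1 and 68.0 CPM. The 4 highest values of the series, in S5, H, S8 and F, were all from APPtg/CETPtg mice, while the lowest was mouse A.

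Drd2, the receptor of the indirect pathway (ENSMUSG00000032259, chr9:49340627-49408177, plus strand), was spread widely within groups. Its values were 71.0, 82.4, 69.6 and 76.4 CPM in S1 to S4, 69.8, 89.7, 84.2 and 74.8 CPM in A to D, 88.5, 54.2, 77.0 and 71.8 CPM in S5 to S8 and 58.7, 62.8, 62.3 and 76.5 CPM in E to H. S6 was the lowest of all and S5 the second highest although both belonged to the vehicle-treated APPtg/CETPtg group. Adora2a (ENSMUSG00000020178, chr10:75316877-75334784, plus strand) ranged from 58.0 CPM in S6 over a median of 86.9 to 105 CPM in C. Its group means were 89.6 ± 11.8 and 95.3 ± 11.0 CPM in CETPtg mice with vehicle and evacetrapib, and 80.9 ± 15.9 and 83.6 ± 11.0 CPM in APPtg/CETPtg mice (SD, n = 4 each), and the groups overlapped.

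Penk, the enkephalin precursor (ENSMUSG00000045573, chr4:4133531-4138819, minus strand), had the narrowest spread. It was 388, 449, 378 and 446 CPM in S1 to S4 and 367, 386, 411 and 389.5 CPM in A to D. In S5 to S8 it was 429, 363, 367 and 373 CPM and in E to H 363, 341, 358 and 376 CPM. Of the 8 APPtg/CETPtg mice, 7 were below the median of the CETPtg mice and 5 were below the lowest of them.

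Pde10a, the phosphodiesterase of both pathways (ENSMUSG00000023868, chr17:8525372-8986648, plus strand), was lower in APPtg/CETPtg mice. The CETPtg mice measured 443, 496, 422 and 440.4 CPM in S1 to S4 and 438, 454, 466 and 410.2 CPM in A to D. The APPtg/CETPtg mice measured 447, 339, 424 and 393 CPM in S5 to S8 and 339, 363, 349.8 and 413 CPM in E to H. Here 5 of the 8 were below the lowest CETPtg mouse, and S5, S7 and H overlapped with that group.

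Ppp1r1b (ENSMUSG00000061718, chr11:98348404-98357796, plus strand) was 589.7, 658, 494 and 572 CPM in S1 to S4, 478, 619.5, 613 and 509.6 CPM in A to D, 721, 511, 614 and 599.9 CPM in S5 to S8 and 486, 509, 468 and 573 CPM in E to H. Within APPtg/CETPtg mice, all 4 evacetrapib-treated mice were below the median of the vehicle-treated mice and 3 were below the lowest of them. Rgs9 (ENSMUSG00000020599, chr11:109225355-109298129, minus strand) ranged from 106 CPM in S6 over a median of 138 to 185 CPM in S5, so that the extremes of the series were in the same group. Its group means were 149 ± 13.2 and 137 ± 15.4 CPM in CETPtg mice with vehicle and evacetrapib, and 141 ± 33.1 and 131 ± 7.58 CPM in APPtg/CETPtg mice (SD, n = 4 each).

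**Figure D1:**
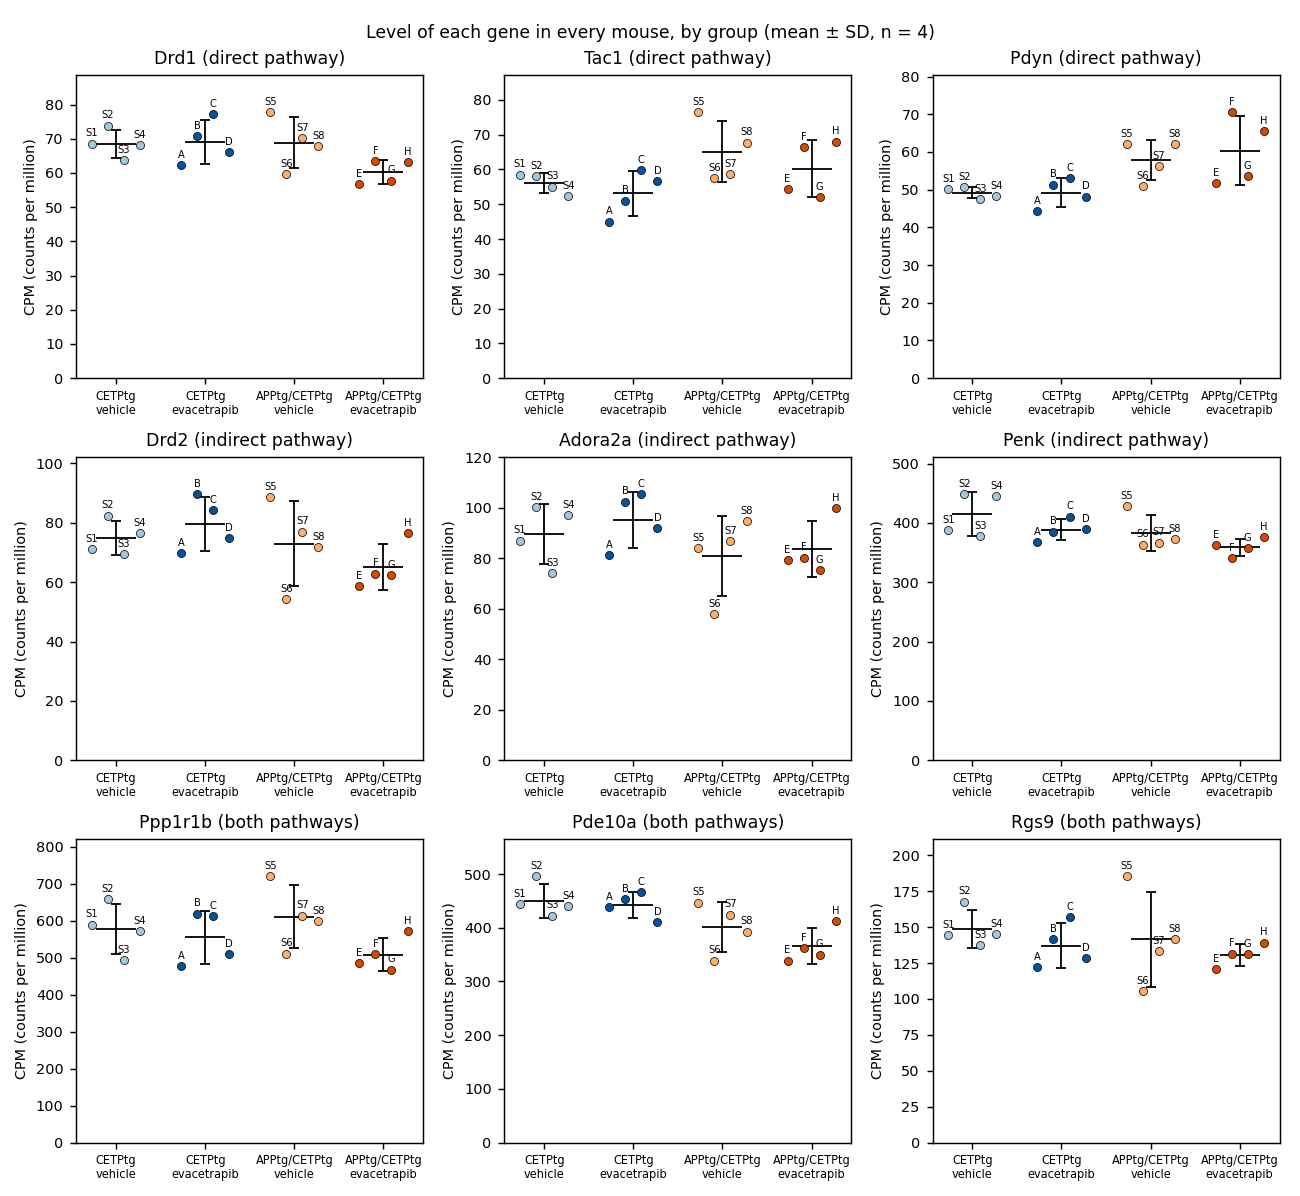
Level of each member in CPM (counts scaled to 1000000 per library) in the 16 mice, 1 point per mouse with its replicate label, by group, with the group mean ± SD (n = 4) in black. Pdyn lies between 44.4 and 53.0 CPM in the 8 CETPtg mice and between 50.9 and 70.6 CPM in the 8 APPtg/CETPtg mice, and S5 and S6 are far apart in most panels.

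The first comparison asked whether inhibition of CETP changed these genes. Over both genotypes, 0 of the 9 members passed the test between evacetrapib- and vehicle-treated mice (edgeR's quasi-likelihood test, called where the adjusted p was 0.05 or less and the gene changed by 5% or more), beside 0.0107% of all genes tested. DESeq2's Wald test and limma-voom also called 0 members, and 2 members had an unadjusted p under 0.05. These were Ppp1r1b, with a log2 fold change of -0.16 (95% interval -0.32 to -0.0046, edgeR adjusted p = 0.621), and Penk, at -0.09 (-0.19 to -0.0034, edgeR adjusted p = 0.618). Rgs9 was at -0.12, Tac1 at -0.10, Drd1 at -0.09, Pde10a at -0.08, Drd2 at -0.04, Pdyn at 0.03 and Adora2a at 0.07 on the log2 scale. Over the 9 members the intervals reached from -0.32 (Ppp1r1b) to 0.25 (Adora2a) on the log2 scale. The median over the members was -0.09, beside -0.0015 over all genes tested.

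The same treatment was then compared within each genotype, and the CETPtg and APPtg/CETPtg comparisons share no mice. In CETPtg mice 0 of the 9 members passed the edgeR test, beside 0% of all genes tested, 0 had an unadjusted p under 0.05, and the log2 fold changes lay between -0.12 and 0.09. In APPtg/CETPtg mice 0 members passed, beside 0.043% of all genes tested, and DESeq2's Wald test and limma-voom also called 0. Ppp1r1b and Drd1 were the 2 members with an unadjusted p under 0.05 in that genotype. Ppp1r1b was 509 ± 45.8 CPM with evacetrapib and 611 ± 86.0 CPM with vehicle (SD, n = 4 each), a log2 fold change of -0.26 (-0.48 to -0.05, edgeR adjusted p = 0.457). Drd1 had a log2 fold change of -0.19 (-0.35 to -0.03, edgeR adjusted p = 0.461). The difference between the genotypes in the evacetrapib effect was tested directly, and 0 members passed, beside 0% of all genes tested. For Drd1 this difference was -0.20 on the log2 scale (-0.43 to 0.02, edgeR adjusted p = 0.738), and 0 members had an unadjusted p under 0.05 by edgeR or were called by the likelihood ratio test of DESeq2.

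The second comparison asked whether the mutant APP transgene changed these genes. Over both treatments, 2 of the 9 members differed between APPtg/CETPtg and CETPtg mice by edgeR's test, 1 higher and 1 lower, beside 17.7% of all genes tested, so the count of members was near that of genes at large. Pdyn was higher in APPtg/CETPtg mice, at 59.1 ± 7.06 against 49.2 ± 2.68 CPM (SD, n = 8 each), a log2 fold change of 0.26 with a standard error of 0.06 (95% interval 0.14 to 0.39, edgeR adjusted p = 0.00528). All 8 APPtg/CETPtg mice were above the median of the CETPtg mice. Pde10a was lower, at 383 ± 41.7 against 446 ± 26.5 CPM (SD, n = 8 each), a log2 fold change of -0.22 with a standard error of 0.05 (-0.33 to -0.11, edgeR adjusted p = 0.00836). For Pde10a 7 of 8 APPtg/CETPtg mice were below the median of the CETPtg mice.

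The other 7 members did not pass the test. Tac1, the second peptide of the direct pathway, was at 0.20 on the log2 scale (0.05 to 0.35, edgeR adjusted p = 0.0547), with 6 of 8 APPtg/CETPtg mice above the CETPtg median. Penk, the peptide of the indirect pathway, was at -0.11 (-0.21 to -0.02, edgeR adjusted p = 0.0764). Both lay close to the threshold: DESeq2's Wald test called 4 members, which were Pdyn, Pde10a, Tac1 and Penk, beside 3719 of the 18609 genes tested. The receptors were at -0.09 (Drd1, -0.21 to 0.03), -0.16 (Drd2, -0.34 to 0.01) and -0.17 (Adora2a, -0.35 to 0.02). Of the signalling members, Rgs9 was at -0.07 (-0.24 to 0.10) and Ppp1r1b at -0.02 (-0.18 to 0.13). The median over the 9 members was -0.09 on the log2 scale, beside 0.0046 over all genes tested.

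**Figure D2:**
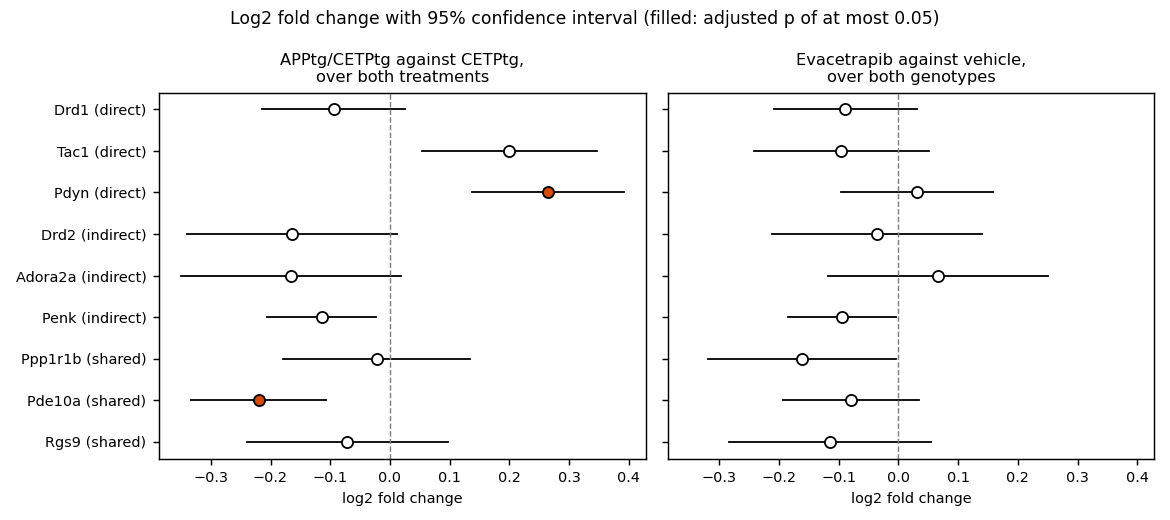
Log2 fold change of each member with its 95% interval (edgeR), for APPtg/CETPtg against CETPtg over both treatments and for evacetrapib against vehicle over both genotypes, n = 8 mice a side, with filled points for genes that passed the test. Pdyn (0.26) and Pde10a (-0.22) are the only filled points, both for genotype.

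Both genotype differences were as large without E, S3, S7 and S8, 4 libraries with high levels of pituitary, hypothalamic or choroid plexus genes. Mouse B was kept, although its sum of choroid plexus genes was 120 CPM, beside 117 CPM in S7. With these left out together, a setting chosen after the values were seen, Pdyn was at 0.28 (edgeR adjusted p = 0.0215) and Pde10a at -0.24 (edgeR adjusted p = 0.0301). Pdyn and Pde10a remained called in each of the 16 fits that left out 1 mouse. Tac1 was called when C, E, G, S6 or S7 was left out, with an adjusted p between 0.0345 and 0.125 over the 16 edgeR fits, and Penk when S3 or S5 was left out (0.0255 to 0.157). Across 18583 genes the genotype log2 fold change moved with gene length (Spearman -0.32) and with GC content (0.38), and Pde10a, with 12.8 kb of exon, was the longest member. When each mouse's trends with GC content and length were removed, Pde10a was at -0.14 and no longer passed (edgeR adjusted p = 0.145), while Pdyn (0.20, adjusted p = 0.039), Tac1 (0.25, adjusted p = 0.0367) and Penk (-0.22, adjusted p = 0.00335) passed.

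Within 1 treatment the genotypes were compared with 4 mice a side. Under vehicle 0 members passed the edgeR test, beside 10.4% of all genes tested, and 3 had an unadjusted p under 0.05. These were Pdyn at 0.23 (edgeR adjusted p = 0.0953), Tac1 at 0.22 (adjusted p = 0.183) and Pde10a at -0.17 (adjusted p = 0.174). Under evacetrapib 0 members passed, beside 2.99% of all genes tested, and 4 had an unadjusted p under 0.05. They were Pdyn at 0.30 (edgeR adjusted p = 0.07), Pde10a at -0.27 (adjusted p = 0.0599), Drd1 at -0.20 (adjusted p = 0.162) and Drd2 at -0.29 (adjusted p = 0.169). DESeq2's Wald test called 0 members under vehicle and 2 under evacetrapib, beside 2429 and 1135 of the 18609 genes tested. By limma-voom 0 members were called in both, beside 1973 and 523 of all genes tested. Single mice decided the calls at this size: Pdyn passed under vehicle without S6 and under evacetrapib without E or S6, and Pde10a passed under evacetrapib without H, S5 or S6. Over the edgeR fits without 1 mouse the adjusted p of Pdyn lay between 0.0497 and 0.218 under vehicle and between 0.0439 and 0.23 under evacetrapib, and that of Pde10a between 0.02 and 0.148 under evacetrapib.

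Among other genes listed for the same neurons, those that passed the edgeR test between the genotypes over both treatments were lower in APPtg/CETPtg mice. Of 16 further genes shared by both kinds of medium spiny neuron, 5 fell in APPtg/CETPtg mice and 0 rose, beside 8.38% of all genes tested that were called lower and 9.35% called higher, with a median log2 fold change over the list of -0.08 beside 0.0046 over all genes tested. They included the transcription factors Foxp1 (-0.30) and Bcl11b (-0.25), the sodium channel subunit Scn4b (-0.32) and the phosphodiesterase Pde7b (-0.17), with edgeR adjusted p between 0.00115 and 0.0219 for these 4. Of 6 other direct-pathway genes 1 fell, the transcription factor Ebf1 (-0.34), and of 5 other indirect-pathway genes 1 fell, the receptor Gpr52 (-0.24), with edgeR adjusted p = 0.0291 and 0.0204. With lists this short, 1 gene of 6 or of 5 was near the 17.7% called over all genes. Ptprm, a receptor phosphatase of the indirect-pathway list, passed under vehicle (-0.22, edgeR adjusted p = 0.0238). Of the 16 shared genes, 2 passed under vehicle, Bcl11b and Pde7b, and 1 under evacetrapib, Foxp1, all lower in APPtg/CETPtg mice, beside 4.42% and 1.71% of all genes tested that were called lower and 10.4% and 2.99% called in either direction. The genes named here followed the members unevenly over the mice. Their r with the members' mean was 0.78 for Scn4b, 0.56 for Gpr52 and 0.55 for Ebf1. It was 0.44 for Pde7b, 0.40 for Foxp1, 0.39 for Bcl11b and -0.26 for Ptprm. These lists were not refitted with the length and GC content trends removed.

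Among 14 partners of dopamine and cAMP signalling, 3 rose and 2 fell, beside 9.35% and 8.38% of all genes tested. The kinase Cdk5 (0.15), which phosphorylates DARPP-32, the phosphatase subunit Ppp1ca (0.15), which DARPP-32 inhibits, and the phosphodiesterase Pde2a (0.22) rose. The Rgs9 anchor Rgs7bp (-0.24) and the calcineurin subunit Ppp3ca (-0.21) fell, and the edgeR adjusted p of these 5 genes lay between 0.00275 and 0.0184. Of 9 genes for peptide processing and peptide receptors, 0 passed in any comparison by edgeR and 1 had an unadjusted p under 0.05 for genotype. The most abundant were the processing enzymes Cpe, at 0.06 on the log2 scale, and Pcsk2, at 0.0042. Of 5 genes of striatal patch and matrix 0 passed in any comparison by edgeR, and 0 had an unadjusted p under 0.05 for genotype, with Epha4 at -0.09 and Calb1 at -0.03. In the evacetrapib comparisons and in the interaction, 0 genes of these lists passed by edgeR.

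Markers of other cells and regions that the tissue could hold were counted in the same way, beside the 17.7% of all genes tested that were called between the genotypes. Of 7 interneuron genes 1 rose, Sst (0.19). Of 8 genes of the cerebral cortex Fezf2 rose (0.32) and Rorb fell (-0.43). Of 6 hippocampal genes Prox1 (-0.32) and Fibcd1 (-0.21) fell, and of 6 thalamic genes Tcf7l2 (-0.60) and Plekhg1 (-0.23) fell and Ramp3 rose (0.33). Of 8 genes of glia and vessels those that fell included the myelin gene Mbp (-0.20), and of 4 cerebellar genes tested Zic1 fell (-0.37). The edgeR adjusted p of these 10 genes lay between 0.00405 (Rorb) and 0.049 (Fibcd1). Of 5 genes of dopamine neurons tested 0 passed over both treatments, and under vehicle Slc6a3 (-1.67) and Slc18a2 (-1.02) fell. Both were low, with their highest levels in S3, at 4.42 CPM for Slc6a3 and 3.21 CPM for Slc18a2. Under evacetrapib 4 of these 5 genes were higher in APPtg/CETPtg mice, with a median of 0.10 on the log2 scale, and 0 passed. For the hypothalamus (3 tested), the olfactory bulb (5), the choroid plexus (5) and the pituitary (1), 0 genes passed over both treatments, and Pomc passed under evacetrapib, a comparison that included mouse E. The sum of the olfactory bulb list was 34.1 to 146 CPM in CETPtg and 14.6 to 174 CPM in APPtg/CETPtg mice, and that of the cortical list 1704 to 2083 and 1781 to 2499.7 CPM. Apart from the fit without E, S3, S7 and S8 and the olfactory bulb covariate given further on, the part of these regions in the members' differences was not tested.

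The members' levels varied together from mouse to mouse. Of the 36 pairs of members, 33 correlated positively over the 16 mice on the log2 CPM scale, with a median Pearson r of 0.65, and 22 pairs passed for r after adjustment over the 36 pairs (permutation test, two-sided, adjusted p of at most 0.05). For Spearman's rho 22 pairs also passed, and 21 pairs passed for both. Against all 18608 other genes tested, the median r of each member lay between -0.01 and 0.00456, and 0.666% (Penk) to 4.95% (Pdyn) of them reached 0.65. The mean standardized level of the 9 members was highest in S5 (1.37 SD), S2 (0.97 SD) and C (0.84 SD), and lowest in S6 (-1.26 SD), E (-1.01 SD) and G (-0.94 SD), so the extremes, S5 and S6, had the same genotype and treatment. The genes of 1 mouse share a library, its depth and a piece of tissue.

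The receptors of the 2 pathways were among the closest pairs. Drd1 and Drd2 had r = 0.87, permutation p = 4e-05, adjusted p = 0.00045, rho = 0.88, permutation p = 1e-05, adjusted p = 0.00036, and without the 2 mice farthest from the median of Drd1 the r was 0.82. Within CETPtg mice r was 0.80 and within APPtg/CETPtg mice 0.87 (n = 8 each, no test), and with vehicle and evacetrapib 0.95 and 0.87. The highest r of all, for Drd1 and Ppp1r1b, was 0.90. The peptides of the direct pathway, Tac1 and Pdyn, also moved together, with r = 0.82, permutation p = 9e-05, adjusted p = 0.00045, rho = 0.70, permutation p = 0.00357, adjusted p = 0.00803, and r was 0.81 without the 2 farthest mice.

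The peptides did not follow Drd1, the receptor of the same neurons, over all mice. Drd1 and Pdyn had r = 0.11, permutation p = 0.695, adjusted p = 0.75, rho = 0.06, permutation p = 0.83, adjusted p = 0.83, and without the 2 farthest mice r was -0.07. Within CETPtg mice their r was 0.92, within APPtg/CETPtg mice 0.46, and with the 4 group means subtracted 0.78. Drd1 and Tac1 went from 0.39 over all mice to 0.76 with group means subtracted. With group means subtracted, all 36 pairs correlated positively, with a median r of 0.72 and a lowest value of 0.26. The lowest r without that step, for Pdyn and Penk, was -0.26.

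**Figure D3:**
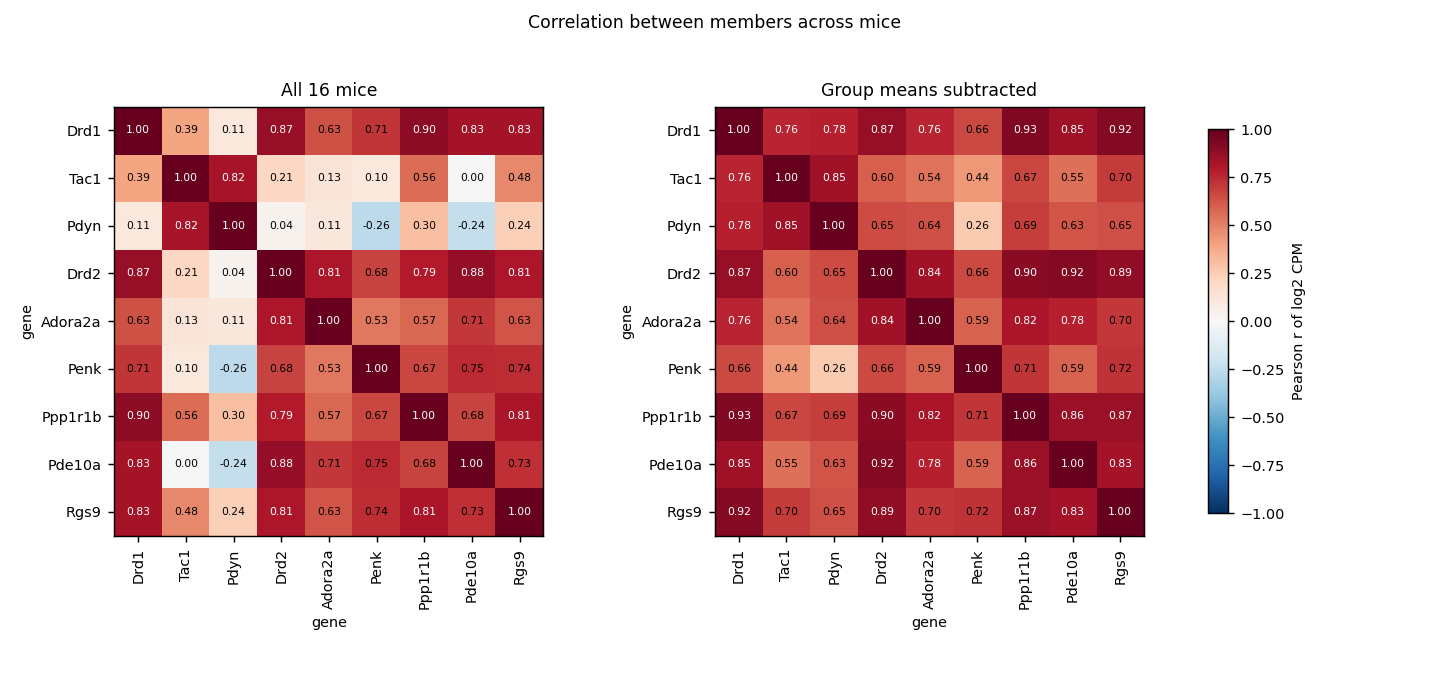
Pearson r of log2 CPM between the 9 members over the 16 mice, left as measured and right with the mean of each of the 4 groups subtracted. On the left Pdyn is pale with each member (r from -0.26 to 0.30) except Tac1 (r = 0.82), while on the right every pair is positive, from 0.26 upward.

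The log2 ratio of Pdyn to Drd1 within a mouse, a measure chosen after the values were seen and given without a test, lay between -0.55 and -0.42 in the 8 CETPtg mice and between -0.33 and 0.15 in the 8 APPtg/CETPtg mice. The genotypes did not overlap on this ratio. It holds Pdyn, which was called higher in APPtg/CETPtg mice, as were 9.35% of all genes tested. How many other pairs of genes separate the genotypes in this way was not counted. Within APPtg/CETPtg mice the ratio of Pdyn to Drd1 was -0.25 ± 0.09 with vehicle and -0.01 ± 0.14 with evacetrapib (SD, n = 4). Those 2 groups overlapped. The log2 ratio of Tac1 to Penk ran from -3.09 to -2.73 in CETPtg and from -2.78 to -2.36 in APPtg/CETPtg mice, with overlap. The log2 ratio of Drd1 to Drd2 differed less, at -0.16 ± 0.08 in CETPtg and -0.08 ± 0.13 in APPtg/CETPtg mice (SD, n = 8).

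**Figure D4:**
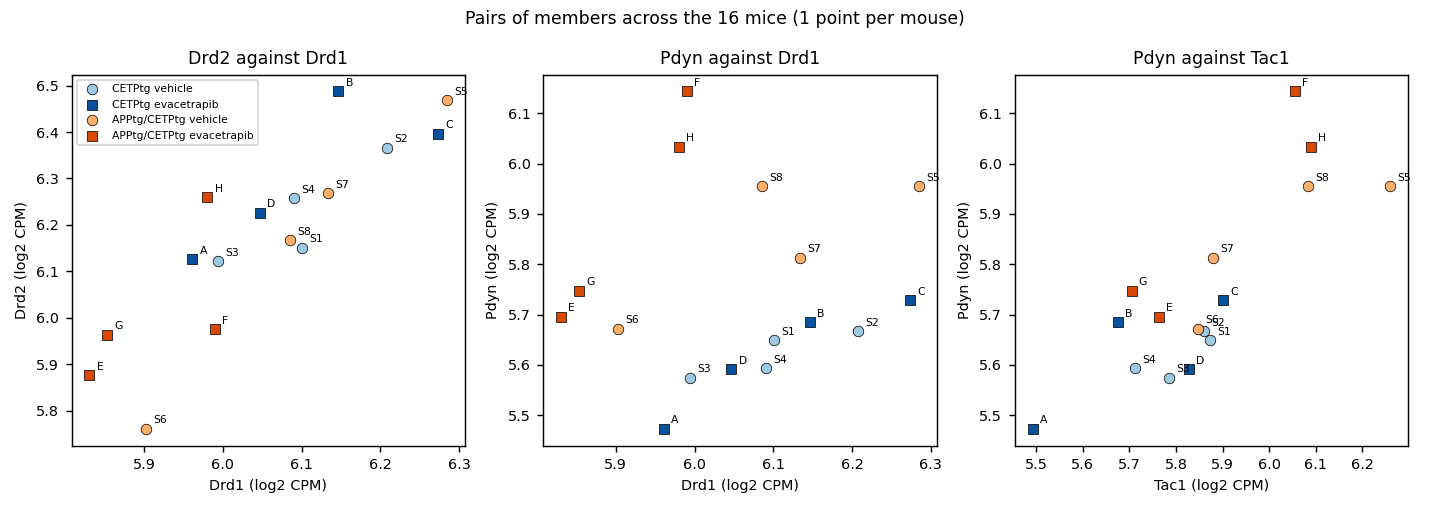
Log2 CPM of Drd2 against Drd1, Pdyn against Drd1 and Pdyn against Tac1, 1 point per mouse, coloured by group. The genotypes are mixed along the line for Drd1 and Drd2 (r = 0.87). For Pdyn against Drd1 (r = 0.11 over all 16) the APPtg/CETPtg mice lie higher relative to Drd1, a ratio chosen after the values were seen.

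When the mean of the list of shared medium spiny neuron genes was added to the model as a covariate, a setting chosen after the values were seen, the members' genotype differences shifted upward. Pdyn was then at 0.38 between the genotypes (edgeR adjusted p = 0.000487), Tac1 at 0.34 (adjusted p = 0.00238) and Ppp1r1b at 0.19 (adjusted p = 0.00656). These values are relative to the covariate. As measured, Ppp1r1b was not higher, at 560 CPM in APPtg/CETPtg and 567 CPM in CETPtg mice (log2 fold change -0.02, edgeR adjusted p = 0.88). Pde10a was at -0.08 and no longer passed (adjusted p = 0.164). The list behind this covariate had a median r of 0.75 with the members' mean and itself held 5 genes that fell between the genotypes. This fit therefore cannot show that a member rose. With the mean of the olfactory bulb list as the covariate instead, Pdyn (0.23), Pde10a (-0.25), Drd1 (-0.13, edgeR adjusted p = 0.0475) and Drd2 (-0.21, adjusted p = 0.0403) passed.

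The genes whose pattern over the 16 mice was most like the mean of the members were Gpr6, an orphan receptor of the indirect pathway (r = 0.95), the retinoic acid receptor Rarb (0.93), the phosphodiesterase Pde1b (0.91), the G protein subunit Gng7 (0.89) and Rasd2, a small GTPase enriched in striatum (0.87). They were followed by Syndig1l (0.87), Rasgrp2 (0.87), Fam160b2 (0.86), Lingo3 (0.85) and BC051408 (0.85), the last at a mean of only 0.228 CPM. Of these 10 genes, 6 were in the lists of medium spiny neuron genes. The list of 16 shared medium spiny neuron genes had a median r of 0.75 with the members' mean, from -0.49 to 0.93. The median was lower for the 6 other direct-pathway genes, at 0.42 (-0.24 to 0.69). For the 5 other indirect-pathway genes it was -0.14 (-0.29 to 0.95), with Gpr6 the highest. All 5 olfactory bulb genes had a negative r, from -0.64 to -0.48. Among the members, Drd1, Ppp1r1b and Rgs9 followed the mean of the other 8 most closely (r = 0.90 each), and Pdyn (0.17) and Tac1 (0.43) least.

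**Figure D5:**
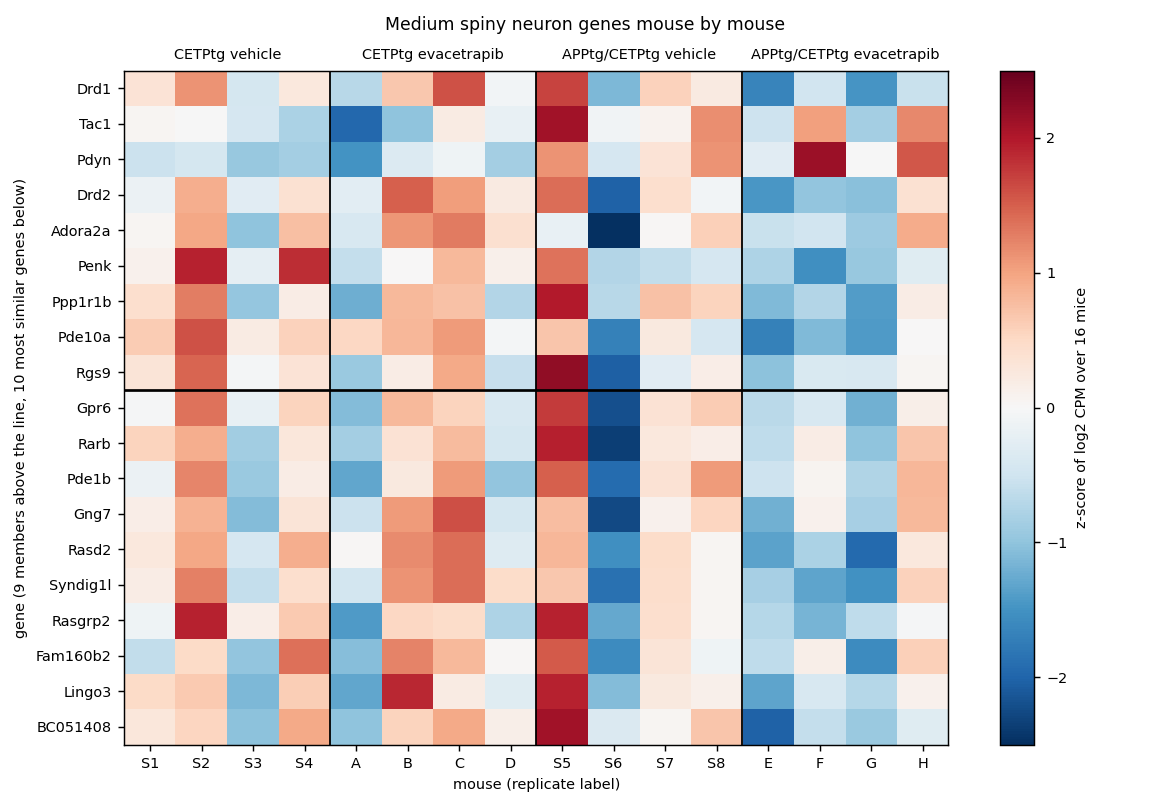
Standardized level (z-score of log2 CPM over the 16 mice) of the 9 members and the 10 genes most like their mean, with mice in columns by group. S5 is high (mean over the members 1.37) and S6 low (-1.26) in nearly every row. Pdyn and Tac1 depart from the other rows in mice of both genotypes. They lie above every other row in the APPtg/CETPtg mice F and H, and below every other row in the CETPtg mice B and S4.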

How the data were processed

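Brain RNA of 16 female mice was sequenced as poly(A) selected, directional, paired-end libraries. The authors trimmed reads with Trimmomatic 0.39, aligned them with STAR 2.7.8a to mm10, and counted them per gene with HTSeq-count, per the methods and processing notes. The deposited values are these raw counts. The annotation, counting version and strand setting were not given in the sources used here.

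The genes and lists were chosen with earlier results of these data known. Genes reaching 10 counts in 4 or more mice were tested by edgeR 4.0.16 (quasi-likelihood test, TMM) in R 4.3.3. The comparisons over both genotypes or treatments used genotype and treatment as additive terms, and the others used 4 group means. A gene was called where its Benjamini-Hochberg adjusted p was 0.05 or less and it changed by 5% or more. Levels are CPM, and log2 CPM used a prior count of 2. Alternatives used DESeq2 1.42.0 and limma 3.58.1 (voom). Scripts were checked on simulated data.

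All 9 members were named. From each list, genes called in any comparison were named, or else the 2 most abundant (2 called genes are not reported here), and the 10 genes most like the members were those with the highest r with the mean of their z-scores. Correlations used 100000 permutations, for which 1e-05 is the smallest p possible. Counts of replicates differed by more than sampling noise in every pair. Positions are from GENCODE M21 on GRCm38, which held 55141 of the 55487 row identifiers, and promoters from RefSeq.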

Additional observations from a re-analysis of the deposited data

Results flagged for a closer look

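Penk in the APPtg/CETPtg vehicle group was marked because mouse S5, at 429 CPM, stood apart from the other 3 mice of its group, which lay between 363 and 373 CPM. The gap was 0.855 of the group's range, above Dixon's 95% critical value for 4 samples. It was 1 of 36 groups examined, and chance marks about 1 in 20. S5 was also the highest mouse of the series for Drd1, Tac1, Ppp1r1b and Rgs9. Without S5, Penk was at -0.14 between the genotypes (edgeR adjusted p = 0.0255).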

How the results depend on the processing

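In the evacetrapib comparisons and the interaction, 0 members were called under every alternative run. Over both treatments, 2 members differed between the genotypes, beside 3299 of the 18609 genes tested. The count was 4 at an adjusted p of at most 0.1 (4526 of all genes) and by DESeq2's Wald test (3719 of all genes). With the olfactory bulb list as a covariate it was also 4. It was 3 with no filter (2752 of 34733 genes) and with GC content and length trends removed. With the covariate of shared medium spiny neuron genes (the shared-gene covariate) it was 3, and with any 1 mouse left out 2 to 3. Under vehicle the count of 0, beside 1934 of all genes, became 1 at an adjusted p of at most 0.1 (3007 of all genes). It was also 1 with no filter (1672 of 34733 genes) and with only the compared mice (1522 of 17861 genes). With GC content and length trends removed and with the olfactory bulb covariate it was 1 as well. The shared-gene covariate gave 3, and leaving out 1 mouse gave 0 to 1. Under evacetrapib the count of 0, beside 556 of all genes, became 2 at an adjusted p of at most 0.1 (1260 of all genes). It was also 2 by the Wald test (1135 of all genes), with no filter (661 of 34733 genes) and with the shared-gene covariate. With only the compared mice (327 of 17701 genes) and with the olfactory bulb covariate it was 1. Leaving out 1 mouse gave 0 to 2.

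With the covariate of shared medium spiny neuron genes, 5 members reversed between the genotypes on the log2 scale: Drd1 to 0.0498, Drd2 to 0.0496, Adora2a to 0.0761, Ppp1r1b to 0.19 and Rgs9 to 0.133. Drd2 reversed to 0.0201 for evacetrapib over both genotypes. With 1 mouse left out, evacetrapib over both genotypes gave Pdyn -0.00619 to 0.0627 and Drd2 -0.0768 to 0.0244, and genotype over both treatments gave Ppp1r1b -0.0738 to 0.0107. The cause of these changes was not tested. The number of all genes called between the genotypes fell from 3299 to 1601 with the GC content and length trends removed and to 1857 without E, S3, S7 and S8. Between the treatments over both genotypes 2 of all genes were called, 59 by the Wald test and 35 with no filter, and in APPtg/CETPtg mice 8, 73 and 88. Between the genotypes under evacetrapib 556 of all genes were called, 1135 by the Wald test and 91 to 858 with 1 mouse left out. The covariates, the removed trends and the set of 4 mice left out were chosen after seeing the data. Among member pairs, 22 correlated, 20 to 23 with 1 mouse left out and 29 with group means subtracted. No paired analysis was possible because the groups share no replicate numbers. With 4 mice a group, the spread between mice exceeded counting error and sets the width of the members' intervals.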
